A study of Homo sapiens with 2 samples.

Results

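Translation initiation factors (eIFs) and elongation factors (eEFs) were compared between A549 cells carried into epithelial to mesenchymal transition (EMT) by transforming growth factor beta (TGF-beta), and A549 cells given no treatment. A gene was a member when its symbol began with EIF or EEF, a digit and then only letters and digits, and did not end in P followed by digits, the form of pseudogene names. This gave 62 of the 57736 gene entries. A549 is an established lung adenocarcinoma line. Per the labels and the design text the cells of both groups were wild type and carried a red fluorescent reporter of vimentin. Each group had 1 library built from 10 ng of total RNA with the AmpliSeq Transcriptome kit. This is a multiplex PCR assay designed to read each gene through a short amplicon, though counts of some genes fell in several separate exon regions. The sources used here do not give the dose of TGF-beta or the time of treatment.

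Translation begins when eIF2 brings the initiator tRNA to the small ribosomal subunit, eIF1 and eIF1A keep that subunit open for scanning, and eIF3 holds the assembly together. The eIF4 group binds the mRNA cap and unwinds the leader, and eIF5 and eIF5B complete the joining of the large subunit. In elongation eEF1A delivers aminoacyl-tRNAs, the eEF1B subunits recharge eEF1A with GTP, and eEF2 moves the ribosome along the mRNA. The mRNAs of several of these factors, like those of ribosomal proteins, are known as TOP mRNAs, because they begin with a C followed by a tract of pyrimidines through which growth signals control their translation.

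The starts of members show how far this feature is shared in the group. RefSeq gave windows around a transcription start for 50 of the 62 members, with more than 1 window for 10 of them. A start with C at position 1 and C or T at each of the next 4 bases was present in 12 of 66 member windows, which is 18.2%, against 4.07% of all 35116 windows in the table. The strand read was that of the gene, and a match describes these letters only. The following 30-base windows (RefSeq, GRCh38.p14) hold 10 bases before the start and 20 from the start on, with the run of pyrimidines at the start in capitals. The first 6 have such a start and the last 4, from other members described below, do not.
EEF1A1 (chr6:73521013-73521042, minus strand): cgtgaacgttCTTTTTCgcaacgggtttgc
EEF2 (chr19:3985444-3985473, minus strand): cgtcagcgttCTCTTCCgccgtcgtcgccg
EEF1B2 (chr2:206159885-206159914, plus strand): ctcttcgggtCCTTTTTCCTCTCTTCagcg
EIF4B (chr12:53006446-53006475, plus strand): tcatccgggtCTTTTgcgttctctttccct
EIF3K (chr19:38619178-38619207, plus strand): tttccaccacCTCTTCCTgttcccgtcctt
EIF3D (chr22:36529147-36529176, minus strand): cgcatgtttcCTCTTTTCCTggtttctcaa
EIF1 (chr17:41688875-41688904, plus strand): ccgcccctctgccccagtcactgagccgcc
EIF4H (chr7:74174346-74174375, plus strand): ctcgctcaccctggttcctctcggagcgga
EIF4A1 (chr17:7572815-7572844, plus strand): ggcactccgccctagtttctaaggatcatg
EIF4E (chr4:98929114-98929143, minus strand): tggagcggttgtgcgatcagatcgatctaa

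Most translation factor genes had lower counts in the TGF-beta library. Values are expected counts rounded to whole numbers, and levels are CPM, that is each count set against a common library size after trimmed-mean (TMM) scaling of the totals. Of the 62 members, 55 reached 5 CPM in 1 of the libraries. Of these 55, 35 (63.6%) were lower by 2-fold or more with TGF-beta and 6 (10.9%) higher by 2-fold or more. Over all 15401 genes past the same filter, these shares were 26.7% lower and 22.0% higher. The median log2 ratio, TGF-beta over untreated, was -1.50 for the members and 0.01 for all genes. Since each group is 1 library, no test of the treatment is possible, and no difference here has a replicate check.

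Factors were next set beside genes of like depth. Among the 30 members with at least 20 counts in 1 library, 22 (73.3%) were at least 2-fold lower and 2 as far higher, with a median log2 ratio of -2.59. Of all 3629 genes with such counts, 40.3% were at least 2-fold lower and 14.4% as far higher, with a median of -0.38. Of the 8 members with at least 100 untreated counts, 7 were at least 2-fold lower and 0 higher, with the EEF1D total the exception. Of all 570 genes of that depth, 42.1% were as far lower and 3.16% as far higher. The 8 members and the 570 genes were chosen on untreated counts alone, which favours lower ratios. With so few higher genes at that depth, 0 of 8 members says little. The sets with 20 counts lean the same way, since 3157 genes had 20 counts in the untreated library and 1965 with TGF-beta. Of the 22 lower members, only EEF1A1 (34 counts) and EEF2 (21) reached 20 counts with TGF-beta. Among the 25 members past the filter with fewer counts, 13 were at least 2-fold lower and 4 as far higher, against 22.5% and 24.4% of 11772 genes of that depth.

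**Figure D1:**
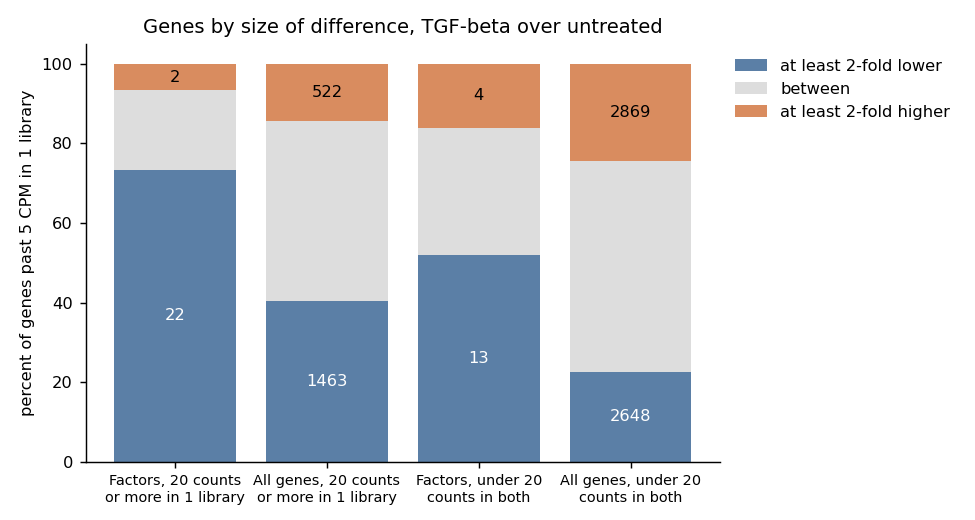
Bars give the percent of genes past 5 CPM in 1 library in 3 classes (lower by 2-fold or more with TGF-beta, between, higher by 2-fold or more), and the printed figures are numbers of genes. Lower genes make up 73.3% of translation factors with at least 20 counts in 1 library and 40.3% of all genes of that depth. More genes reach 20 counts in the untreated library, which favours lower ratios in both sets.

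The libraries were shallow and unevenly filled. Rounded totals were 597133 counts with TGF-beta and 674784 without, and the 10 genes with the most counts held 43.6% and 32.6% of them. Of 6 epithelial markers, 5 were above 0 with TGF-beta and 6 without. KRT7 had 32 and 179 counts, KRT8 had 16 and 53, KRT19 had 45 and 51, EPCAM had 7 and 4, CDH1 had 4 and 1 and KRT18 had 0 and 3. Summed levels were 184.0 and 408.0 CPM for the epithelial markers, 733.0 and 374.0 for 8 fibroblast markers (of which COL1A1 had 356 and 196 counts), 24.8 and 54.7 for 7 leukocyte markers, 24.8 and 16.8 for 3 endothelial markers and 23.0 and 18.2 for 4 lung alveolar markers, in the TGF-beta and the untreated library. In these lists LUM and LYZ were at 0 in both libraries, and COL3A1 and CD14 in the TGF-beta library. Of 73 ribosomal protein genes past the filter, 62 were at least 2-fold lower, with a median log2 ratio of -3.12. The part of the libraries' uneven filling, of the marker levels and of the ribosomal protein genes in the results below was not tested. Fewer cells of a type and less RNA per cell cannot be told apart in such libraries.

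Scanning factors were low, and EIF1 had the lowest ratio of all members. EIF1, which guards the choice of the start codon (hg19, chromosome 17, 39845137 to 39848920, plus strand), had 11 counts with TGF-beta and 482 without, or 19.5 and 676 CPM. Its log2 ratio was -5.12, with a 95% counting interval of -6.13 to -4.27. Counting intervals are exact and cover counting error alone, since PCR copies carry no molecular identifiers and cannot be counted as molecules. EIF1B, a close relative of EIF1, had 9 counts with TGF-beta and 34 without, with a log2 ratio of -1.58 (-2.83 to -0.49). EIF1AX, the X-linked gene of eIF1A, had 4 and 18 counts and a log2 ratio of -1.83 (-3.86 to -0.23). All 3 lay below equality by more than their counting error. EIF1AD, which holds an eIF1A-like domain, had 0 counts with TGF-beta and 10 without. With a floor of 3 counts in place of the 0, its level was 2.64-fold lower, a value set by the floor. Its counting interval ran up to -0.83, which allows a difference under 2-fold. EIF1AY, on the Y chromosome, was not 2-fold apart between the libraries.

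All 3 subunits of the eIF2 complex had lower counts with TGF-beta. EIF2S2, the beta subunit, had 3 counts with TGF-beta and 26 without, with a log2 ratio of -2.78 (-5.15 to -1.07). EIF2S3, the gamma subunit that binds GTP and the initiator tRNA, had 0 counts with TGF-beta and 13 without. With the floor its level was 3.43-fold lower (interval up to -1.27). EIF2S1, the alpha subunit whose phosphorylation restrains initiation under stress, had 2 and 9 counts. Its log2 ratio of -1.83 had an interval that reached equality (-5.08 to 0.44). EIF2A, a separate protein that can bring initiator tRNA to some mRNAs, had 2 and 16 counts (-2.66, -5.83 to -0.58). EIF2D, an alternative initiation factor, had 0 and 4 counts, too few to tell a difference. EIF2S3L had 1 and 0 counts and did not pass the filter.

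The regulators of eIF2 were read at low depth and lay in both directions. EIF2B4, the delta subunit of the exchange factor eIF2B that recharges eIF2 with GTP, had 16 counts with TGF-beta and 3 without, with a log2 ratio of 2.75 (0.95 to 5.17). It was the highest ratio of any member that had one. EIF2B4 overlaps AC074117.10 on the other strand (3 and 4 counts), and their joint log2 ratio was 1.78 (0.46 to 3.27). EIF2B1 had 2 and 7 counts, EIF2B2 had 1 and 4, and EIF2B5 had 3 and 2, all within counting error, while EIF2B3 had 0 counts in both libraries. Of the kinases that phosphorylate eIF2 alpha, the heme-regulated EIF2AK1 had 0 counts with TGF-beta and 9 without. With the floor its level was 2.38-fold lower, but its interval ran up to -0.65, which allows a difference under 2-fold. The double-stranded RNA sensor EIF2AK2 had 3 and 2 counts, the endoplasmic reticulum stress sensor EIF2AK3 had 6 and 3, and the amino acid sensor EIF2AK4 had 2 and 1. A difference in these 3 kinases was not detectable at this depth.

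The eIF3 complex was lower in most subunits, and no subunit was 2-fold higher. Of 13 subunit genes past the filter, 10 (76.9%) were at least 2-fold lower and 0 as far higher. Over all genes past it these shares were 26.7% and 22.0%. The median log2 ratio was -1.50, and 8 of the 13 had counting intervals below equality. The 10 include EIF3C and EIF3CL, which are near-identical in sequence and not separate measurements. The summed count of the 14 genes was 106 with TGF-beta and 461 without (log2 ratio -1.78, -2.10 to -1.48). EIF3L had 8 and 102 counts, or 14.2 and 143 CPM, with a log2 ratio of -3.34 (-4.59 to -2.30). EIF3H had 5 and 57 counts (-3.18, -4.85 to -1.87), and EIF3K, a small peripheral subunit, had 10 and 61 (-2.27, -3.40 to -1.30). These 3 had the largest differences in the complex, though EIF3H overlaps UTP23 on the other strand (14 and 14 counts), and their joint log2 ratio was -1.57 (-2.38 to -0.82).

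The other eIF3 subunits followed with smaller differences. EIF3B, a scaffold of the core, had 7 counts with TGF-beta and 39 without (log2 ratio -2.14, -3.55 to -0.97). EIF3G, an RNA-binding subunit, had 7 and 25 (-1.50, -2.95 to -0.25), and EIF3M had 8 and 40 (-1.99, -3.29 to -0.87). The loosely bound EIF3J had 3 and 17 counts (-2.17, -4.58 to -0.38), and EIF3E had 6 and 21 (-1.47, -3.07 to -0.11). The largest subunit gene, EIF3A, had 21 and 36 counts, at a log2 ratio of -0.44, and its interval of -1.29 to 0.37 held equality. The same was true of EIF3D, which can bind the cap of some mRNAs, with 17 and 26 counts (-0.28, -1.25 to 0.66). EIF3F had 3 and 5 counts. EIF3I had 0 and 3 counts and did not pass the filter.

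The cap-binding and unwinding group eIF4 held genes on both sides of 2-fold. Of 12 genes past the filter, 6 (50%) were at least 2-fold lower and 4 (33.3%) as far higher. Over all genes past it these shares were 26.7% and 22.0%. With total counts or DESeq2 size factors in place of TMM, 6 were lower and 2 (EIF4E and EIF4E3, 16.7%) higher. Of all genes, 19% and 17.5% were as far higher on these 2 scales, so the higher share of eIF4 was near that of all genes. Lower members of eIF4 included the helicase gene EIF4A1, with 3 counts with TGF-beta and 80 without, or 5.31 and 112 CPM (log2 ratio -4.40, -6.71 to -2.80). EIF4H, which stimulates that helicase, had 4 and 107 counts (-4.41, -6.31 to -3.01), and EIF4B, with the same role, had 5 and 36 (-2.51, -4.22 to -1.16). EIF4A3, a helicase of the exon junction complex, had 3 and 45 counts (-3.57, -5.90 to -1.93). EIF4G1, the scaffold that joins the cap-binding protein to the helicase and to eIF3, had 4 and 32 (-2.66, -4.62 to -1.17). EIF4A2, the second helicase gene, had 1 and 6 counts, and its interval (-7.77 to 0.79) reached equality. The helicase gene and its helpers were low together.

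The gene entry of the cap-binding protein was higher with TGF-beta, on the counts of 1 exon region. EIF4E, which binds the cap (chromosome 4, 99792835 to 99851788, minus strand), had 48 counts with TGF-beta and 19 without, or 84.9 and 26.6 CPM. Its log2 ratio was 1.67 (0.88 to 2.52). However, 1 exon region, shared with an entry on the other strand, held 98.9% of its exon counts with TGF-beta and 54.9% without. Outside that region EIF4E had 1.0 exon counts with TGF-beta and 11.5 without, so the higher level cannot be credited to the gene as a whole. EIF4G2, a relative of EIF4G1 that does not bind eIF4E and serves cap-independent initiation, had 73 and 42 counts, or 129 and 58.9 CPM (1.13, 0.57 to 1.72). Both counting intervals lay above equality. EIF4G3, the third scaffold gene, had 22 and 33 counts (-0.25, -1.10 to 0.57). EIF4E3 had 6 and 2 counts and EIF4ENIF1, a binding partner of eIF4E, had 7 and 4. Both were past 2-fold but within counting error, and EIF4E2 had 4 and 7. EIF4E1B had 0 and 2 and did not pass the filter.

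Of the 6 genes of subunit joining, eIF5A and the large subunit, 4 (66.7%) were at least 2-fold lower and 0 higher. Over all genes past the filter these shares were 26.7% and 22.0%, and with 6 genes the count of 0 higher says little. The 4 include EIF5A and EIF5AL1, which can exchange reads, and EIF5, whose interval reached equality. EIF6, which keeps free large subunits apart from small ones, had 2 counts with TGF-beta and 45 without (log2 ratio -4.16, -7.25 to -2.22). EIF5A, which carries hypusine and helps ribosomes through difficult peptide bonds, had 6 and 108 counts, or 10.6 and 151 CPM (-3.83, -5.31 to -2.67). The near-identical EIF5AL1 had 3 and 39 counts (-3.36, -5.70 to -1.71). EIF5, the GTPase activator of eIF2, had 3 and 10 counts (-1.40, -3.90 to 0.56). EIF5B, the GTPase that joins the subunits, had 16 and 14 counts, a log2 ratio of 0.53 with an interval of -0.60 to 1.67. EIF5A2 had 3 and 0 counts and gives no ratio.

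Elongation factors differed widely among themselves. EEF1A1, the main carrier of aminoacyl-tRNAs (chromosome 6, 74225473 to 74233520, minus strand), had 34 counts with TGF-beta and 460 without, or 60.2 and 645 CPM. Its log2 ratio was -3.42 (-3.97 to -2.92). EEF2, the translocation factor (chromosome 19, 3976054 to 3985467, minus strand), had 21 and 405 counts, or 37.2 and 568 CPM, with a log2 ratio of -3.93 (-4.64 to -3.30). The exchange factor subunits EEF1B2, with 18 and 164 counts (-2.85, -3.64 to -2.15), and EEF1G, with 3 and 83 (-4.45, -6.76 to -2.86), were low as well. These 4 genes differed by far more than counting error.

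The totals of the other elongation genes did not differ in this way, though parts of EEF1A2 and EEF1D did. EEF1A2, the eEF1A of muscle and nerve, had 46 counts with TGF-beta and 65 without, or 81.4 and 91.2 CPM (log2 ratio -0.16, -0.74 to 0.40). EEF1D, the delta subunit of the exchange factor, had 759 and 961 counts, or 1340 and 1350 CPM. The log2 ratio of this total was -0.00, with the narrow interval of -0.14 to 0.13. In exon regions 10 and 11, however, EEF1D had 0.147 and 0 counts with TGF-beta against 91.6 and 65.6 without. Region 3 of EEF1A2 had 0 counts with TGF-beta and 14.4 without. The even totals of both genes came from other regions, given below. EEF2K, the kinase that inhibits eEF2, had 4 and 6 counts. EEF1E1, a component of the multisynthetase complex, had 0 and 2 counts and did not pass the filter, and neither did EIF4EBP2P, whose symbol ends in P with no digit, with 0 and 1.

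**Figure D2:**
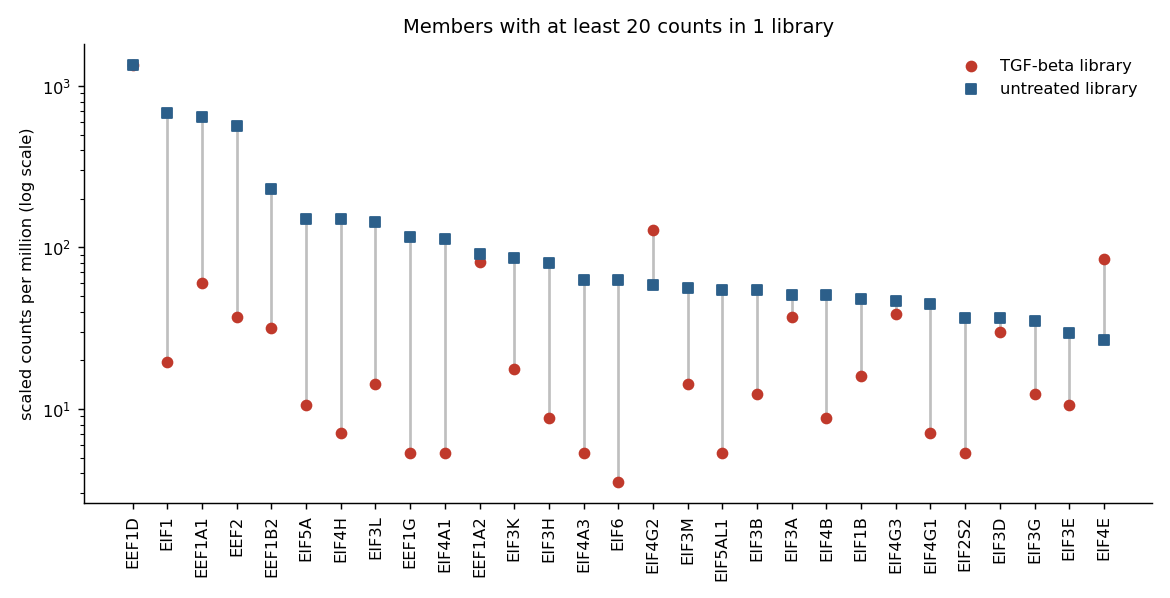
Scaled CPM on a log axis for the 29 members with at least 20 counts in 1 library, Y-linked EIF1AY left out, in the TGF-beta library (red circles) and the untreated library (blue squares), ordered by untreated count. The circles lie far below the squares for EIF1, EEF1A1 and EEF2, coincide with the square for EEF1D, and lie above it for EIF4G2 and EIF4E.

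In the TGF-beta library the summed count of all members was set largely by EEF1D, with 759 counts there and 961 in the untreated library. The 62 genes held 1292 counts with TGF-beta and 3903 without, or 0.216% (exact 95% binomial interval 0.205% to 0.228%) and 0.578% of the totals. The log2 ratio of the sums was -1.26 (-1.35 to -1.17). Without EEF1D the sums were 533 and 2942, and the log2 ratio was -2.13 (-2.26 to -2.0).

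**Figure D3:**
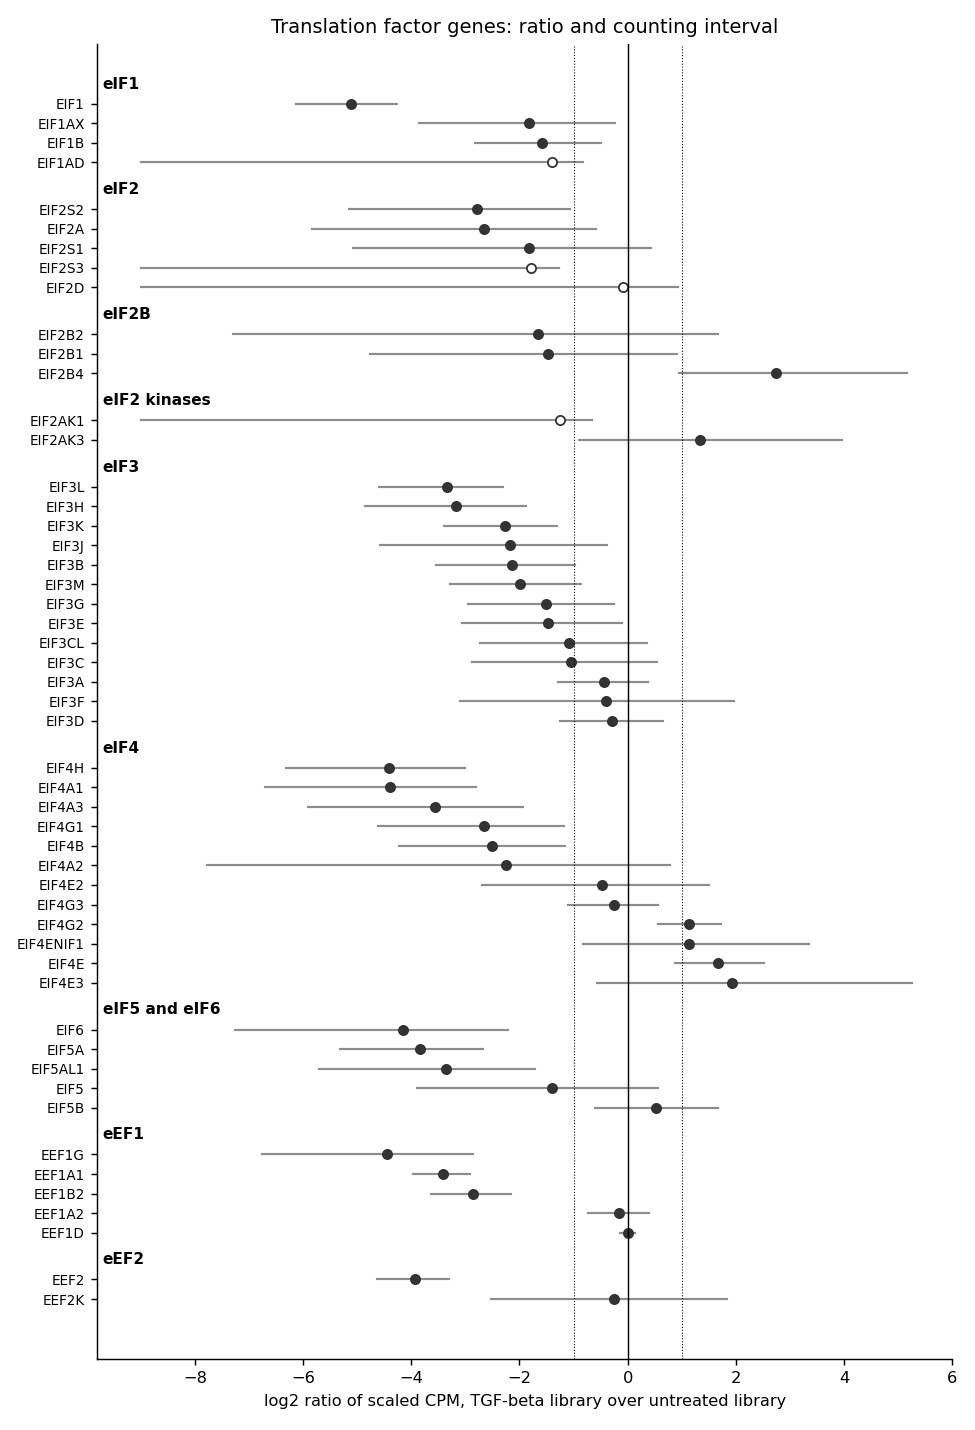
Log2 ratio of scaled CPM, TGF-beta over untreated, for the 51 members past the filter that have a ratio, Y-linked EIF1AY left out, by complex. Lines are exact 95% counting intervals, open points have 0 counts in the TGF-beta library and use the floor of 3 counts (their intervals run off the left edge), and dotted lines mark 2-fold. EIF1 lies lowest at -5.12 and EIF2B4 highest at 2.75.

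Members that start with pyrimidines and members that do not were both low. The 12 members with a start of the form printed above all passed the filter, with 9 at least 2-fold lower, 0 at least 2-fold higher and a median log2 ratio of -2.26 (range -3.93 to -0.08). Of the 38 members with windows of another form, 33 passed the filter, 19 were at least 2-fold lower and 6 as far higher, with a median of -1.40 (range -5.12 to 2.75). Over all genes past the filter, 26.7% were as far lower and 22.0% as far higher. Members with no RefSeq window, among them EEF1D, EEF1A2 and EIF3L, are in neither group. Among members whose printed starts lack the tract, EIF1 had a log2 ratio of -5.12 (-6.13 to -4.27), against -3.93 (-4.64 to -3.30) for EEF2, and these intervals overlap. EIF3D has a tract of 10 pyrimidines and a log2 ratio of -0.28. On a list of 10 factors taken from general knowledge of TOP mRNAs, 7 were at least 2-fold lower and 0 higher (median -2.68), against 28 lower and 6 higher of 45 past the filter outside it (median -1.47). The difference between these groups was not tested.

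In some genes the ratio differed between parts of the gene. The deposited exon entries were summed over overlapping exons into exon regions, numbered from the 5′ end, and the genes below were chosen after their values were seen. EIF1, EEF1B2 and EIF3D had like shares per region in both libraries, with 79.6% and 75.6% of the counts of EIF1 in region 1. EEF1D (chromosome 8, 144661867 to 144681711, minus strand) had 752 counts with TGF-beta and 798 without in region 12, which is 98.4% and 82.7% of its exon counts. In the neighbouring regions 10 and 11 it had 0.147 and 0 counts in the TGF-beta library against 91.6 and 65.6 in the untreated library. The equal level of EEF1D therefore joined a part that was near 0 in the TGF-beta library and a part that was alike in both.

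EIF4E and EEF1A2 were built in a similar way. EIF4E had 94.0 counts with TGF-beta and 14.0 without in region 2, an exon at the 5′ end (99850046 to 99850243), but 0 and 6.03 in region 5. Its exon counts sum to 95.0 with TGF-beta and 25.5 without, above its gene counts of 48 and 19. Outside region 2 they were 1.0 and 11.5. EEF1A2 (chromosome 20, 62119366 to 62130505, minus strand) had 32.5 and 36.5 counts in region 4 and 13.5 and 8.0 in region 8, but 0 and 5.43 in region 2 and 0 and 14.4 in region 3. In EIF4G2 the excess of the TGF-beta library lay in regions 2 and 3, with 32.1 and 20.5 counts against 2.85 and 9.5 in the untreated library, while regions 9 and 10 had 5.26 and 11.4 against 8.88 and 17.1. EIF4G3 had 3.69 counts with TGF-beta and 24.7 without in region 15, but 8.0 and 0 in region 20.

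Genes with a low total could hold an even part as well. EIF3K had 0 and 24.5 counts in region 1 and 1.0 and 25.4 in region 2, in the TGF-beta and the untreated library, but 9.0 and 10.0 in region 7. EIF3M had 0.894 and 30.4 counts in region 5 but 6.25 and 5.0 in region 12, its last. EIF5B, even in total, had 15.9 and 6.07 counts in region 1 and 0 and 5.92 in region 17. The deeper genes EEF2, with 9.27 and 168 counts in region 5 and 7.84 and 228 in region 6, and EEF1A1, with 15.8 and 241 in region 5 and 16.4 and 217 in region 6, were low in each of the 2 regions that held most of their counts.

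**Figure D4:**
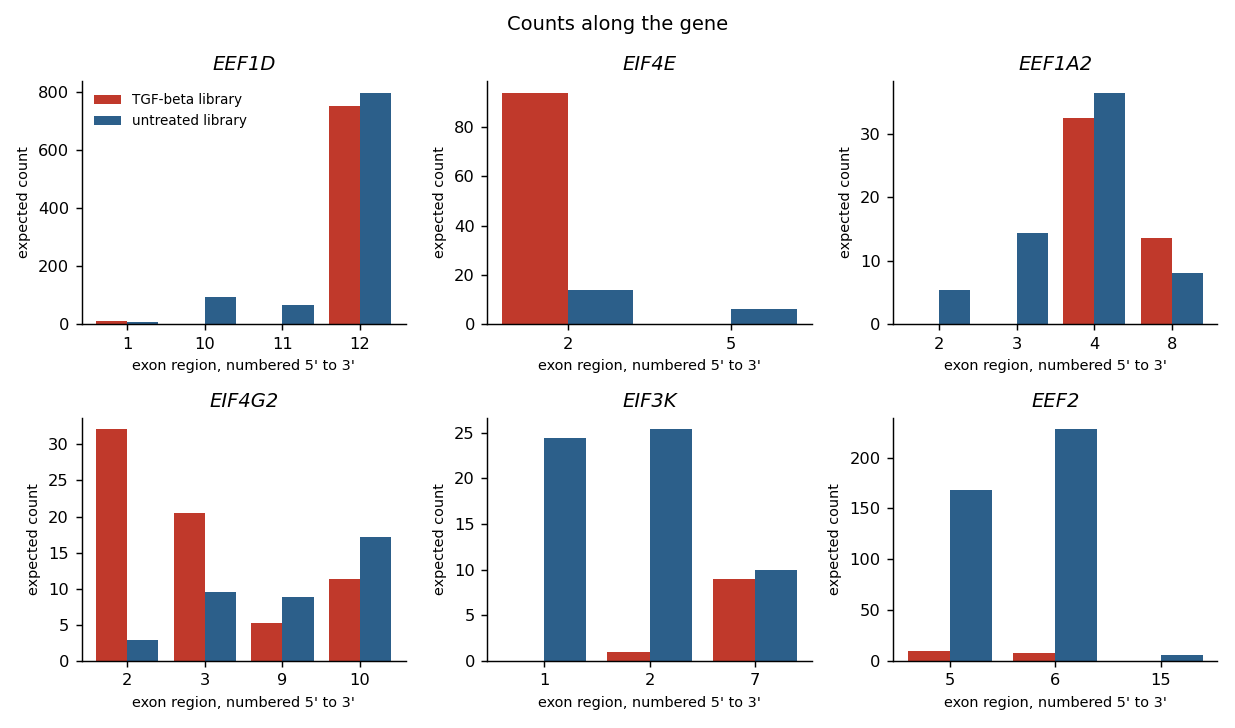
Expected counts in exon regions, numbered 5′ to 3′, of 6 genes in the TGF-beta library (red, left) and the untreated library (blue, right), for regions with at least 4 counts in a library. EEF1D is even in region 12 and near 0 in the TGF-beta library in regions 10 and 11, EIF4E and EIF4G2 exceed the untreated library in region 2, and EEF2 is low in regions 5 and 6.

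Several members share their place in the genome or their sequence with other entries, so that their counts are uncertain. No source used here names the counting program or its use of strand, and 28 of the 62 members overlap another entry with at least 5 counts over both libraries. RP11-571L19.7, opposite EIF4E and overlapping the exon that held most of its counts, had 47 counts with TGF-beta and 7 without, beside 48 and 19 for EIF4E. GPS2, opposite EIF5A, had 4 and 91 counts beside 6 and 108. MIR3654, an entry on the strand of EEF1G that overlaps most of it, had 15 and 408 counts beside 3 and 83 for EEF1G, and the log2 ratio of their joint count was -4.43 (-5.20 to -3.76). EIF4A1 overlaps SENP3-EIF4A1 on its own strand, with 31 and 87 counts, and the joint count of these entries had a log2 ratio of -1.96 (-2.54 to -1.42). JUP, which overlaps EIF1, had 3 and 44 counts. EIF2AK1 overlaps AIMP2 on the other strand, with 37 and 19 counts, and the joint log2 ratio was 0.74 (-0.01 to 1.5), opposite to that of EIF2AK1 alone. P2RY11, opposite EIF3G, had 68 and 69 counts, and the joint log2 ratio was 0.01 (-0.45 to 0.46). Joint log2 ratios were -1.01 (-1.76 to -0.31) for EIF3M with CCDC73 and -2.44 (-3.33 to -1.66) for EIF3L with ANKRD54. They were 0.34 (-1.08 to 1.76) for EIF4E3 with GPR27 and -0.25 (-1.34 to 0.79) for EIF4ENIF1 with SFI1. Others changed little, such as EIF2A with SERP1 at -2.63 (-4.33 to -1.28). Among the 29 members past the filter with no such overlap, 18 were at least 2-fold lower and 2 as far higher.

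Coding sequences show which members can exchange reads. EIF3C and EIF3CL were 99.9% identical in GENCODE v29 (GRCh38), with 0 mismatches and 3 gap positions, and had 5 and 6 counts in the TGF-beta library and 13 and 16 in the untreated library, so their log2 ratios of -1.04 and -1.08 are not separate measurements. EIF5A and EIF5AL1 were 98.9% identical over 462 coding bases, with 5 mismatches. EEF1A1 and EEF1A2 were 78.0% identical, and EIF4A1 and EIF4A2 76.7%. The stretches of 60 coding bases with the most differences are printed for the first pair that differs and for the eEF1A pair, with differing bases in capitals, to show how much a short read can tell apart.
EIF5A (chromosome 17, coding bases 74 to 133): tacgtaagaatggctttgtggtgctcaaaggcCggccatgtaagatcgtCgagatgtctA
EIF5AL1 (chromosome 10, coding bases 74 to 133): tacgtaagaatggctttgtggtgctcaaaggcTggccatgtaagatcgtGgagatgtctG
EEF1A1 (chromosome 6, coding bases 957 to 1016): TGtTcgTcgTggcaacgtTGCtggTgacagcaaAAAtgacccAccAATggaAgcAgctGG
EEF1A2 (chromosome 20, coding bases 957 to 1016): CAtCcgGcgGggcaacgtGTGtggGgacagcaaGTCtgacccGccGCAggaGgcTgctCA
The first pair differs at 3 of the 60 bases and the second at 20.

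Symbols of the same families that end in P and digits were left out of the members. These 108 entries held 218 counts with TGF-beta and 490 without, a log2 ratio of -0.83 (-1.07 to -0.60). EEF1A1P28 had 67 and 168 counts (-0.99, -1.42 to -0.57), and EIF4A1P1 had 26 and 54 (-0.72, -1.45 to -0.02), smaller differences than those of EEF1A1 and EIF4A1. EIF3FP3 had 1 and 45 counts (-5.16, -10.49 to -2.60), where EIF3F had 3 and 5. The rule also removes the eIF4E-binding proteins, which are no pseudogenes.

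A list of 45 other translation genes held cytosolic and mitochondrial factors and signalling genes, chosen by their role. Of these, 35 passed the filter, 19 (54.3%) were at least 2-fold lower and 2 (5.71%) as far higher, with a median log2 ratio of -1.40. Over all genes past the filter these shares were 26.7% and 22.0%. PABPC1, the poly(A)-binding protein that eIF4G contacts, had 7 counts with TGF-beta and 802 without (-6.50, -7.82 to -5.45), and PABPC4 had 2 and 35 (-3.79, -6.89 to -1.83). TPT1, a TOP mRNA, had 10 and 200 (-3.99, -5.07 to -3.08). The helicase gene DDX3X had 1 and 76 counts (-5.91, -11.23 to -3.39). EIF4EBP1, the repressor that holds eIF4E until mTOR phosphorylates it, had 2 and 32 (-3.66, -6.77 to -1.69), beside 48 and 19 for the EIF4E entry, whose direction rests on 1 exon region.

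Other genes on this list were lower or within counting error. Of the 35 past the filter, 16 had counting intervals below equality and 0 above it. ABCE1, which splits ribosomes after termination, had 2 counts with TGF-beta and 21 without (log2 ratio -3.06, -6.19 to -1.02). PELO, a ribosome rescue factor, had 2 and 23 (-3.19, -6.32 to -1.17), while its partner HBS1L had 27 and 49 (-0.52, -1.26 to 0.18). The same held for mitochondrial elongation factors. TUFM, the counterpart of eEF1A, had 4 and 32 (-2.66, -4.62 to -1.17) and GFM2 had 3 and 15 (-1.99, -4.42 to -0.16), but GFM1 had 8 and 7 (0.53, -1.13 to 2.22) and TSFM had 5 and 2 (1.66, -0.95 to 5.05). PAIP1, a partner of the poly(A)-binding protein, had 2 and 22 (-3.12, -6.26 to -1.10), and CYFIP1, which binds eIF4E, had 7 and 32 (-1.86, -3.28 to -0.65). PPP1R15A, the stress-induced subunit that directs removal of phosphate from eIF2 alpha, had 49 and 145 (-1.23, -1.73 to -0.75).

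Some signalling genes upstream of the factors did not differ beyond counting error. MKNK2, a kinase of eIF4E, had 54 counts with TGF-beta and 59 without (log2 ratio 0.21, -0.35 to 0.77). RPTOR, a subunit of mTOR complex 1, had 27 and 35 (-0.04, -0.82 to 0.73). MTOR had 12 and 11 (0.46, -0.85 to 1.78), and LARP1, which binds TOP mRNAs, had 14 and 14 (0.34, -0.84 to 1.51). The intervals of MTOR and LARP1 allow a difference over 2-fold. RPS6KB1 had 1 and 6 counts (-2.25, -7.77 to 0.79), also within counting error.

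The factors without EEF1D had a smaller difference in summed counts than ribosomal protein genes. The 85 ribosomal protein genes held 0.227% of all counts with TGF-beta and 2.78% without, with a log2 ratio of the sums of -3.45 (-3.54 to -3.37), against -2.13 for the factors without EEF1D. When the libraries were scaled on ribosomal protein genes instead of TMM, an alternative chosen after seeing the data, every log2 ratio moved up by 3.49. The median then was 1.95 for the 54 factors past the filter and 3.24 for all 22332 genes past it. Directions above are those on the TMM scale.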

How the data were processed

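The authors deposited expected counts, not normalized and often not whole, for 57736 genes with their transcripts and exons. The columns were matched to the 2 samples by their descriptions. Coordinates follow hg19. The submitters' processing notes list hg19 and DESeq, with roles not stated. The sources used here name no aligner or counter. Gene counts were rounded, with 0.5 taken upwards. TMM factors from edgeR 4.0.16 (R 4.3.3) were 0.946 for the TGF-beta library and 1.06 for the untreated library. The filter was 5 CPM in 1 library, which takes about 3 counts in the TGF-beta library, and a 0 was set to 3 counts (5.31 CPM with TGF-beta, 4.21 CPM without). No ratio is given where both counts were at or under 3, but tallies and medians hold such genes at the value this rule gives. Intervals are exact Clopper-Pearson intervals at 95%, conditional on the summed count. The calculation was tested on simulated counts. DESeq2 1.42.0 gave alternative size factors.

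Members and lists were chosen with earlier results of these data known. Members with at least 20 counts in 1 library, or at least 10 and a 2-fold difference, were named, and others were described where a complex needed them. EIF1AY, as a Y-linked gene, was named without its counts. Of the other translation genes those 2-fold apart with at least 20 counts were named, with some others chosen after their values were seen. Levels were not compared between genes, since the assay is designed to read each gene through its own amplicon. Start windows came from RefSeq (GRCh38.p14) and coding sequences from GENCODE v29; neither was joined to hg19 coordinates.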

Additional observations from a re-analysis of the deposited data

How the results depend on the processing

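The factors' median log2 ratio of -1.50 kept its sign under the 11 alternatives listed at the start, and turned to 1.95 when ribosomal protein genes set the scale. It was -1.84 with DESeq2 size factors, -1.66 with total counts, -1.40 with no filter or 1 CPM, -2.22 at 20 CPM, -1.62 with more than 3 counts in 1 library and -1.78 without kinases and other modifiers. The summed log2 ratio of -1.26 was -1.48 with DESeq2 size factors and -1.42 with total counts. It was -1.06 without the pairs whose coding sequences were compared. These pairs include EEF1A1 with EEF1A2 (78.0% identical) and EIF4A1 with EIF4A2 (76.7%), which are not near-identical. The summed ratio was -1.93 without members that overlap another entry, -2.13 without EEF1D and 2.23 on the ribosomal protein scale. Members at least 2-fold lower numbered 18 and higher 2 without overlapping members (29 past the filter), 1 and 37 on the ribosomal protein scale (where 94.3% of all genes were as far higher), and 3 were higher at 20 CPM, against 35 and 6. The ribosomal protein scale, the removal of EEF1D and that of overlapping members were chosen after seeing the data. Fewer members tested accounts in part for the lower numbers at 20 CPM and without overlaps. Relative to TMM, every log2 ratio moves by -0.22 with DESeq2 size factors, -0.16 with total counts, 0.08 with the upper quartile and 3.49 on the ribosomal protein scale. Of 152 values for single members under other scalings or log2(CPM + 1), 150 stayed within their counting interval, and EEF1D alone moved, to -0.22 with DESeq2 size factors and -0.16 with total counts. The scalings used here shift every ratio by the same small amount, so only a narrow interval could be left. With log2(CPM + 1), EIF2S3 went from -1.78 to -4.27 and EIF1AD from -1.40 to -3.91. Both had 0 counts with TGF-beta, so their intervals have no lower end and could not be left downwards. Of 80 medians of complexes, 18 moved beyond the counting error of the complex, and the eIF2B median of -0.28 became 2.75 at 20 CPM, where EIF2B4 alone was left. No paired analysis was possible because each group has 1 library. Depth limits members with under 20 counts in both libraries to large differences.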
